A study of Mus musculus with 18 samples.

Results

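The miR-466, miR-467, miR-669 and miR-297 families were followed in cartilage of the mouse knee, in a model in which load ruptures the anterior cruciate ligament (ACL). Members were all miRNAs of the small RNA count table named with the number of 1 of these families, with any letter, copy number and arm. The rule used the names alone and no measured value. This gave 75 of the 1412 miRNAs. Where members had the same count in every library they were treated as 1 measurement, which left 64 measurements. Of these, 18 measurements (23 miRNAs) passed the filter on low counts, out of 428 miRNAs that did so in the whole table. The tested members are a minority, so that every count of changed members below refers to these 18.

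Cartilage caps of the femoral condyle were taken from wild-type C57bl6 mice, and the caps of several mice were pooled for a library. Mechanical load ruptured the ACL of the right knee, and the uninjured left knee of the same mice gave the contralateral group. The 18 libraries comprised 6 of naïve mice, which received no treatment and were collected at day 7, and 3 each of the contralateral and the ACL knee at day 1 and at day 7. All mice carried the same genotype. The model is limited by the pooling of mice, and by the contralateral knee having been in an animal that was injured. The study used more mice at day 7 than at day 1, and gives partial loss of cartilage at day 7 as the reason for its larger pools. Pool size and tissue loss therefore differ between the times.

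A miRNA hairpin is cut into a duplex whose strands are called the 5p and the 3p arm, and the strand that is kept guides Argonaute to messenger RNAs through its seed, bases 2 to 8. The 4 families are rodent miRNAs that arose as tandem copies in an intron of Sfmbt2, a Polycomb group gene that is imprinted and expressed from the paternal allele in extraembryonic tissue. The cluster is best known from the placenta, where it is needed for normal growth. Members of these families can carry short runs of alternating U and G or of alternating A and C, and related copies are hard to tell apart by sequencing.

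The GENCODE annotation of GRCm38 held 81 hairpins of the 4 families. Inside Sfmbt2 lay 71 of them, on the strand of the gene (chr2:10370510-10595253). All 71 were in a single intron of 62472 bp (chr2:10461473-10523944) of its main coding transcript, and 0 overlapped an exon of a coding transcript of the gene. They spanned 51617 bp of that intron. The miR-669 family had 29 hairpins there, the miR-466 family 23, the miR-467 family 14 and the miR-297 family 5. Successive miR-467 hairpins started a median of 2450 bp apart, and 11 of the 13 distances were between 2000 and 3000 bp. For miR-669 and miR-466 the medians were 2421 and 2424 bp, but only 13 of 28 and 9 of 22 distances were between 2000 and 3000 bp, and the shortest were 266 and 281 bp. No miRNA of another family was annotated inside Sfmbt2.

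**Figure D1:**
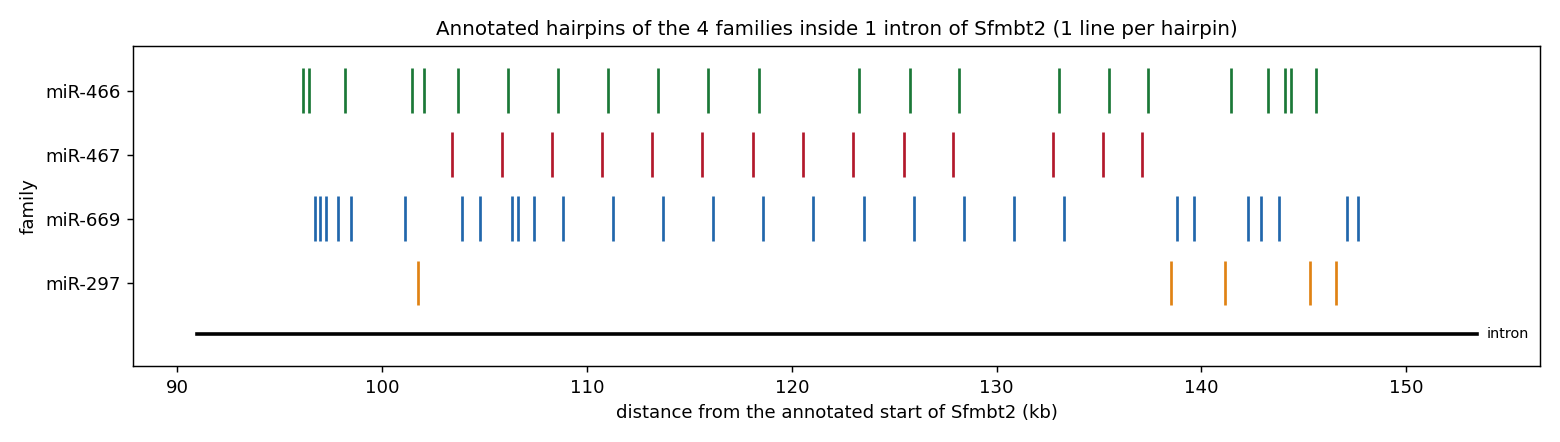
Positions of the 71 hairpins inside Sfmbt2, as the distance in kb from the annotated start of the gene (horizontal axis), with 1 row per family and 1 vertical line per hairpin; the black bar is the intron. The 14 miR-467 hairpins recur at a median distance of 2450 bp between miR-466 and miR-669 hairpins, whereas 4 of the 5 miR-297 hairpins lie towards the end of the array.

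The other 10 hairpins lay elsewhere in the genome. Mir466q was in an intron of Tnik on the same strand. Mir466k, Mir669n, Mir467g, Mir467f and Mir466i were opposite to introns of Gm37240, Slc30a7, Grk4, Fxr2 and Cdk13, and Mir297-1, Mir467h, Mir466j and Mir466f-4 were in no annotated gene. Read by name, 52 measurements came from hairpins inside Sfmbt2 alone and held 95.8% of the reads of the families. A further 10 measurements with 3.9% of the reads came from hairpins outside it, among them miR-467h and miR-466i-3p, which passed the filter. The name of the intron therefore describes nearly all of the reads but not every member.

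As examples, the mature sequences of the 4 most abundant of 8 members with a RefSeq entry (GRCm38.p6) are given, with the seed in capitals. Any RefSeq entry of a member on a single set chromosome, which holds no annotated hairpin of the families, was left out beforehand. All 8 come from hairpins outside Sfmbt2, and no sequence of a member inside it was available.
miR-467h: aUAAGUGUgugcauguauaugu
miR-466k: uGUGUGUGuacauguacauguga
miR-466i-3p: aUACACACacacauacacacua
miR-466j: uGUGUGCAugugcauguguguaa
They lie at chr9:115381898-115381919, chr3:85467396-85467418, chr13:17747552-17747573 and chr10:60960802-60960824, all on the + strand. The 8 sequences were 20 to 23 bases long and had 8 different seeds. A run of 6 alternating U and G (UGUGUG or GUGUGU, read on the mature strand only) was found in 4 of the 8, against 1.91% of the 1679 mature mouse sequences in RefSeq. A run of 6 alternating A and C (ACACAC or CACACA) was found in the other 4 and in 1.01% of all. The shared letters describe these 8 sequences alone and say nothing of what the miRNAs bind.

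The members were of low to moderate abundance. Library totals ranged from 758388 counts (day 7 ACL replicate 1) to 4088852 (day 7 contralateral replicate 2), and the families held 251 to 1473 reads per library, spread over 30 to 47 detected measurements. A floor of 3 reads in a library corresponded to between 0.783 and 4.12 CPM (reads scaled to a common library size, with totals adjusted by TMM). This floor covers counting error only, since reads without molecular identifiers can be copies of one molecule, whereas the intervals of fold changes given below come from the spread between libraries. Of the 11647 reads of the families, miR-467 held 52.8%, miR-669 34.3%, miR-466 11.7% and miR-297 0.653%. Members of more than 1 family shared the remaining 0.575%.

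Most of the signal came from a few 5p arms. The most abundant member was miR-467a-5p with 3439 reads and a mean of 94.9 CPM over the 18 libraries, rank 178 among all miRNAs. Its lowest library (59.7 CPM) was above the highest library of the next member, the shared measurement of miR-669a-5p and miR-669p-5p (58.96 CPM, mean 44.4). That measurement and miR-467c-5p (mean 41.2) overlapped over the libraries. Then came miR-669c-5p (25.1), the shared measurement of miR-669a-3p and miR-669o-3p (12.8), and miR-467e-5p (11.4), and neighbours in this order overlapped as well. The name miR-467a-5p covers 10 hairpins, and the name pair miR-669a-5p and miR-669p-5p covers 14. By contrast miR-467c-5p, miR-669c-5p and miR-467e-5p are each named after 1 hairpin, so that members with 1 hairpin stood beside members with many in the order of levels. How reads that match several copies were counted is not stated in the methods. The equal counts of miR-669a-5p and miR-669p-5p in every library show that reads were counted under each of these names. Whether reads that match similar members were counted more than once in the family sums was not tested.

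The 5p arm prevailed in most members, and a few miR-466 members had more reads of the 3p arm. So did miR-669o by name, but its 3p count is shared with miR-669a-3p. Of the 30 miRNAs with both arms in the table, 22 had at least 50 reads over both, and the 5p arm had more reads in 16 of these. This tally counts each name, and several names share 1 count, such as the 1634 reads of miR-669a-5p and miR-669p-5p. For miR-467a the 5p arm had 3439 reads and the 3p arm 76, and the 5p arm was higher in 18 of 18 libraries. For miR-467c the counts were 1508 and 5, for miR-669c 876 and 6, and for miR-669l 175 and 1. In the miR-466 family 5 of 10 miRNAs had more reads of the 5p arm, among them miR-466c (221 and 146) and miR-466h (53 and 1). The other 5 had more of the 3p arm, from 3 separate measurements. Of these miR-466a had 7 reads of the 5p arm against 371 of the 3p arm, a count that it shares with miR-466e, and the 3p arm was higher in 18 of 18 libraries. For miR-466d the counts were 3 and 56. A shared count can belong to any of its miRNAs, so that no separate arm ratio can be given for miRNAs that share one. The 3p share of reads was 14.9% ± 3.44 (SD, n = 6) in naïve cartilage and 12.0% ± 1.13 (n = 3) in day 7 ACL cartilage, with overlapping libraries.

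**Figure D2:**
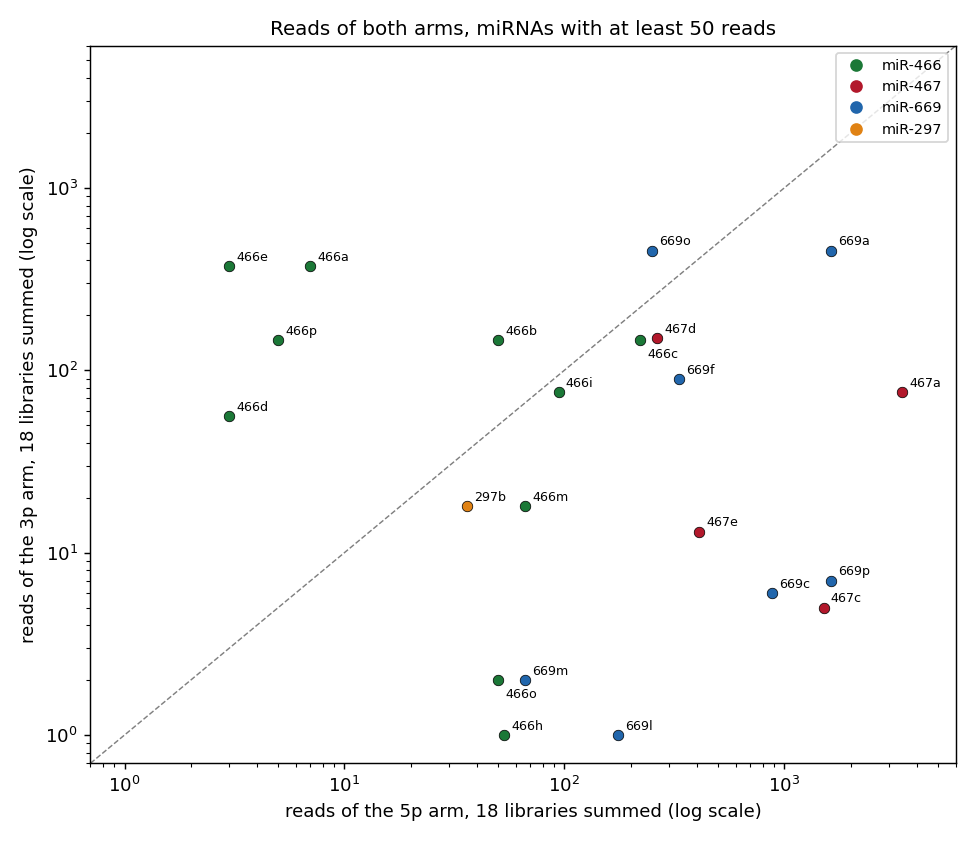
Reads of the 5p arm (horizontal axis) and of the 3p arm (vertical axis), each summed over the 18 libraries on a log scale, for the 22 miRNAs with at least 50 reads over both arms; colours mark the family and the dashed line equal counts. The miR-467 and most miR-669 points lie below the line, and miR-466a, miR-466e, miR-466p, miR-466b, miR-466d and miR-669o lie above it; miRNAs at the same height can share 1 count.

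The summed abundance of the 4 families changed little with injury. In naïve cartilage the lowest, median and highest library had 273, 300.5 and 372 CPM. The 3 day 7 ACL libraries had 323, 345 and 388 CPM, and the 3 day 7 contralateral libraries 312, 324 and 384 CPM. At day 1 the ACL libraries had 294, 304 and 323 CPM and the contralateral libraries 259, 337 and 380.

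The groups overlapped in every one of these sums. The mean was 306.5 ± 35.1 CPM (SD, n = 6) in naïve and 352 ± 33.2 CPM (SD, n = 3) in day 7 ACL cartilage, a ratio of 1.15. Against the day 7 contralateral mean of 340.3 ± 38.6 CPM the ratio was 1.03. The miR-467 sum was 155 ± 27.9 CPM in naïve and 185 ± 26.4 in day 7 ACL cartilage. For miR-669 it was 107 ± 8.06 CPM in naïve, 94.3 ± 18.7 in day 1 ACL and 124 ± 4.11 in day 7 ACL cartilage. In that family all 3 day 7 ACL libraries (120 to 128 CPM) were above all 6 naïve libraries (97.1 to 117 CPM), while the day 7 contralateral libraries (108 to 133.5 CPM) overlapped both. The miR-466 sum (40.3 ± 5.23 against 38.5 ± 3.61 CPM) and the miR-297 sum (2.23 ± 1.33 against 2.68 ± 1.28 CPM) overlapped between naïve and day 7 ACL cartilage. No test was made on a sum. In such bulk samples fewer cells of a type and less RNA per cell cannot be told apart.

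**Figure D3:**
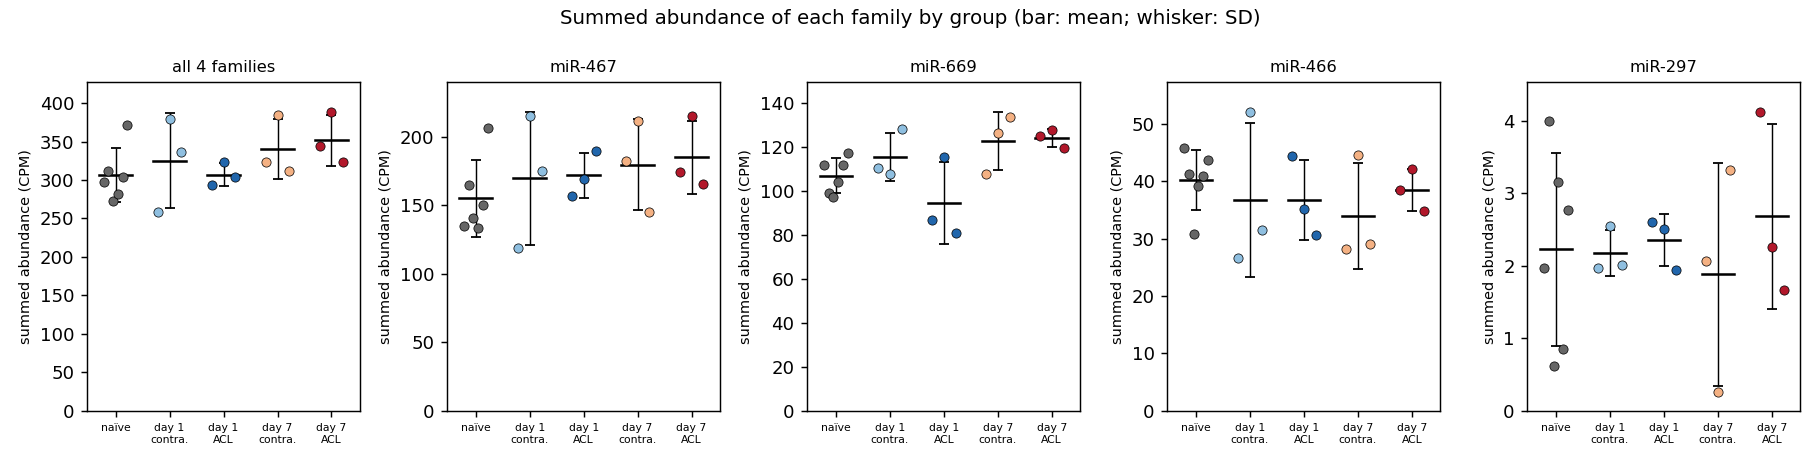
Summed abundance in CPM (vertical axes) of all 4 families and of each family in the 5 groups; points are libraries, horizontal bars group means and whiskers SD. The sum over all families overlaps between all groups (259 to 388 CPM), and the miR-669 sum of the 3 day 7 ACL libraries lies between 120 and 128 CPM.

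Day 7 ACL cartilage was first compared with naïve cartilage, to find miRNAs that differ from uninjured mice 7 days after rupture. In this comparison miR-669l-5p rose, and the other 17 tested members did not pass the threshold. Each miRNA was tested with limma-voom, adjusted over all 428 miRNAs by the Benjamini-Hochberg method at a threshold of 0.05. The call of 1 of 18 members stands beside 18.2% of all miRNAs called. With an unadjusted p under 0.05 there were 3 of 18 members (miR-669l-5p, miR-467e-5p and miR-669f-5p, all higher), beside 26.9% of all miRNAs.

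In naïve cartilage miR-669l-5p had 1.89 CPM in the lowest library, a median of 3.55 and 4.925 in the highest. The 3 day 7 ACL libraries had 12.4, 10.4 and 5.65 CPM. All 3 were above the naïve libraries. The log2 fold change was 1.21 (SE 0.40, 95% interval 0.38 to 2.04), which is 2.31-fold, with an adjusted p of 0.0379 in limma-voom. These levels rest on 9, 23 and 17 reads in the day 7 ACL libraries and 3 to 10 reads in each naïve library. The adjusted p was 0.0848 without naïve replicate 2, 0.0606 without naïve replicate 4, 0.0970 without day 7 ACL replicate 1 and 0.169 without day 7 ACL replicate 2. It was 0.134 with library totals in place of TMM and 0.148 with every miRNA kept. The 6 naïve libraries stand for fewer than 6 independent pools, which the SE, the interval and these p-values do not take into account. The hairpin of miR-669l-5p lies at chr2:10468971-10469068, at the start of the array.

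The most abundant members moved little in the same comparison. For miR-467a-5p the lowest, median and highest naïve library had 68.0, 79.0 and 123.5 CPM, and the day 7 ACL libraries had 103, 133 and 90.7 CPM. With naïve replicate 6 at 123.5 CPM the ranges overlapped, and the log2 fold change was 0.38 (SE 0.27, 95% interval -0.18 to 0.94), with an adjusted p of 0.409 in limma-voom. The measurement of miR-669a-5p and miR-669p-5p had 35.01, 40.8 and 49.8 CPM as lowest, median and highest naïve value and 42.6, 57.0 and 56.1 CPM in day 7 ACL cartilage. Its log2 fold change was 0.33 (95% interval -0.18 to 0.83). For both, the interval excluded a 2-fold change in either direction, that is, 1 log2 unit.

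Among the abundant members 3 had estimates below 0 that did not pass the threshold. For miR-467c-5p (chr2:10473931-10474027) the naïve libraries ran from 31.95 CPM over a median of 38.2 to 55.9, and the day 7 ACL libraries had 27.5, 46.6 and 34.2 CPM. Its log2 fold change was -0.17 (95% interval -0.77 to 0.42). For miR-669c-5p (chr2:10509296-10509404) the naïve values were 19.1, 22.9 and 31.6 CPM as lowest, median and highest, and the day 7 ACL values 26.1, 20.4 and 17.3 CPM. The log2 fold change was -0.20 (95% interval -0.85 to 0.46). The measurement of miR-669a-3p and miR-669o-3p had 9.97, 12.5 and 24.8 CPM in naïve and 12.4, 11.8 and 11.6 CPM in day 7 ACL cartilage, with a log2 fold change of -0.21 (95% interval -0.93 to 0.50). In all 3 the groups overlapped.

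The second-smallest p belonged to miR-467e-5p (chr2:10505721-10505807). It had 6.14, 8.85 and 12.3 CPM as lowest, median and highest naïve value and 17.9, 10.9 and 18.9 CPM in day 7 ACL cartilage, so that 1 day 7 ACL library lay within the naïve range. Its log2 fold change was 0.73 (SE 0.32), with an adjusted p of 0.137 in limma-voom. For miR-669f-5p (chr2:10467229-10467349) the day 7 ACL libraries had 17.9, 11.3 and 12.6 CPM, all above the naïve libraries (6.76 to 10.2 CPM), with a log2 fold change of 0.58 (SE 0.27) and an adjusted p of 0.182. Among the low members, miR-467d-3p had 0.81 (SE 0.47), miR-467b-5p 0.61 (0.49), miR-467h 0.59 (0.52) and the shared 3p measurement of miR-466b, miR-466c and miR-466p 0.45 (0.56). The estimates of miR-669f-3p (-0.61, SE 0.76) and miR-466i-3p (-0.54, SE 0.76) were the least precise. The remaining members, miR-669o-5p, the 3p measurement of miR-466a and miR-466e, miR-467d-5p and miR-466c-5p, lay between -0.14 and 0.42.

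Over the 18 members the median log2 fold change was 0.35, with 11 values above 0 and 7 below, beside a median of -0.003 over all 428 miRNAs. In 8 of the 18 the 95% interval lay within 1 log2 unit of 0 on both sides. For the other 10 a 2-fold change in at least 1 direction was not excluded at this depth.

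**Figure D4:**
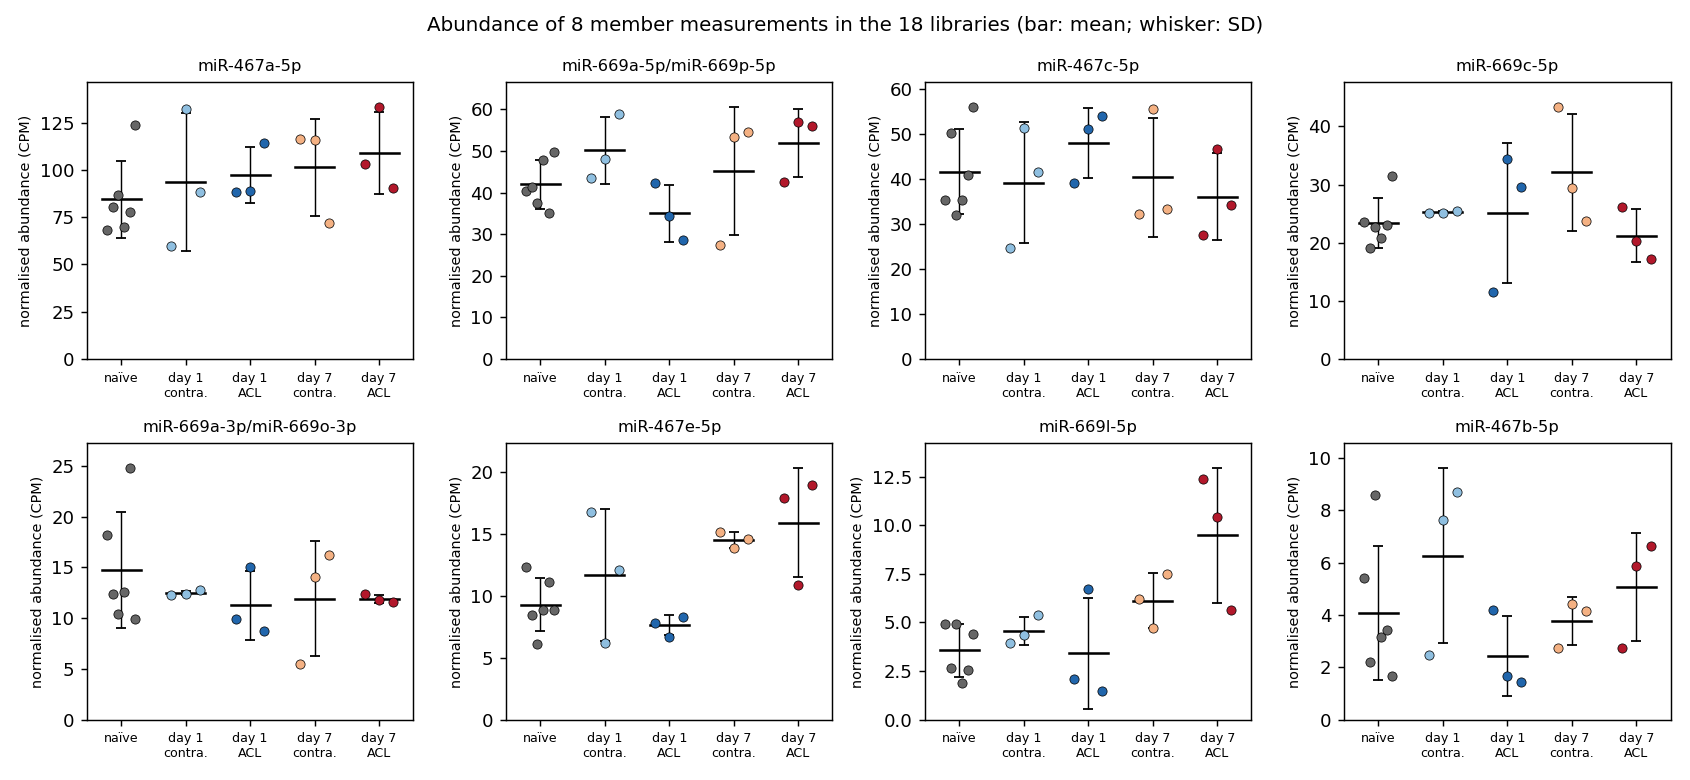
Normalised abundance in CPM (vertical axes, each from 0) of the 6 most abundant members, of miR-669l-5p and of miR-467b-5p in the 5 groups; points are libraries, horizontal bars group means and whiskers SD. The 3 day 7 ACL libraries of miR-669l-5p (5.65 to 12.4 CPM) lie above the 6 naïve libraries, whereas the groups of miR-467a-5p overlap.

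Against the contralateral knee of the same mice at day 7, 0 of 18 members passed the threshold, and 0 had an unadjusted p under 0.05. Of all miRNAs, 14.7% were called and 23.1% had an unadjusted p under 0.05. edgeR's quasi-likelihood test and DESeq2 also called 0 members. Of the estimates 14 were above 0 and 4 below, with a median of 0.26 beside -0.05 over all miRNAs, and they ran from -0.59 to 0.71.

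The contralateral libraries of miR-669l-5p, the member called against naïve cartilage, had 6.18, 4.70 and 7.49 CPM, which overlaps the 12.4, 10.4 and 5.65 CPM of the ACL knees. The log2 fold change was 0.49 (SE 0.41, 95% interval -0.37 to 1.36). The contralateral libraries of miR-467e-5p had 15.1, 13.8 and 14.6 CPM, within the range of the ACL libraries, with an estimate of 0.08 (SE 0.34) on the log2 scale. For miR-669f-5p the 8.24, 10.4 and 11.2 CPM of the contralateral knees lay just below the ACL libraries, with a log2 fold change of 0.37 (SE 0.30).

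The smallest p in this comparison was that of miR-669c-5p. It had 43.3, 29.5 and 23.7 CPM in the contralateral and 26.1, 20.4 and 17.3 CPM in the ACL libraries. The groups overlapped, and the log2 fold change was -0.59 (SE 0.35, 95% interval -1.31 to 0.13), with an adjusted p of 0.329 in limma-voom. Contralateral levels of miR-467a-5p were 116, 116 and 71.95 CPM, with an estimate of 0.12 (SE 0.31). Those of miR-669a-5p and miR-669p-5p were 27.5, 53.5 and 54.5 CPM (0.25, SE 0.28). For miR-467c-5p they were 32.3, 55.6 and 33.3 CPM (-0.13, SE 0.32), and for miR-669a-3p and miR-669o-3p 5.49, 14.1 and 16.2 CPM (0.04, SE 0.39). All 4 overlapped the ACL libraries. In the first contralateral library both measurements of miR-669a were low, at 27.5 and 5.49 CPM.

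At day 1 no difference was called. Against naïve cartilage 0 of 18 members passed the threshold and 0 had an unadjusted p under 0.05, beside 0% and 1.87% of all miRNAs. The smallest p was that of miR-467h, whose hairpin lies outside Sfmbt2. It had 6.79, 5.03 and 2.92 CPM in day 1 ACL and 0.554, 2.39 and 4.42 CPM as lowest, median and highest value in naïve cartilage. This was a log2 fold change of 1.02 (SE 0.51), with an adjusted p of 0.992 in limma-voom. The contralateral knees at day 1 had 4.44, 2.18 and 7.37 CPM and overlapped both groups. This member passed the filter on low counts only through day 1 libraries of ACL and contralateral knees, where it was high. Its smallest p at day 1 is therefore no separate support for a change. Against the day 1 contralateral knee the counts were again 0 and 0 of 18, beside 0% and 1.87% of all miRNAs. There miR-467b-5p (chr2:10481248-10481320) had the smallest p, with 4.18, 1.68 and 1.46 CPM in ACL and 2.47, 7.64 and 8.71 CPM in contralateral libraries (log2 fold change -1.19, SE 0.60, adjusted p 0.997 in limma-voom). The groups overlapped, and the ACL values rest on 8, 2 and 3 reads.

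The most abundant members showed no common direction at day 1. For miR-467a-5p the ACL libraries had 88.3, 88.8 and 114 CPM and the contralateral libraries 59.7, 132 and 88.4. For miR-669a-5p and miR-669p-5p the ACL libraries had 42.3, 34.3 and 28.7 CPM, each below the contralateral libraries (43.4, 48.0 and 58.96). For miR-467c-5p they had 39.2, 51.1 and 53.9 CPM against 24.7, 51.3 and 41.5. The ACL libraries of miR-669c-5p spread from 11.5 to 34.3 CPM (with 29.6 between them), whereas the contralateral libraries were close to each other, at 25.1, 25.1 and 25.5 CPM. For miR-669a-3p and miR-669o-3p the ACL values were 9.92, 15.1 and 8.74 CPM against 12.3, 12.4 and 12.7, and for miR-467e-5p 7.83, 6.70 and 8.26 CPM against 16.8, 6.19 and 12.1. Medians of the log2 fold changes were -0.25 against naïve and -0.20 against contralateral cartilage, with 12 of 18 estimates below 0 in each. Both comparisons use the same ACL libraries.

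The uninjured knees of injured mice were then compared with naïve mice. At day 7, 0 of 18 members passed the threshold, beside 0% of all miRNAs, and 2 had an unadjusted p under 0.05, beside 5.37%. These were miR-467d-3p (log2 fold change 1.08, SE 0.45) and miR-467e-5p (0.65, SE 0.31), each with an adjusted p of 0.675 in limma-voom. The contralateral libraries of miR-467e-5p (13.8 to 15.1 CPM) lay above all naïve libraries. For miR-467d-3p (chr2:10507630-10507714) they had 4.81, 6.52 and 5.82 CPM, beside 0.614 to 5.54 CPM in naïve cartilage. The estimate of miR-669l-5p was 0.71 (SE 0.40). At day 1, 0 of 18 members passed the threshold and 0 had an unadjusted p under 0.05, beside 0% and 0.935% of all miRNAs. The smallest p was again that of miR-467h (log2 fold change 0.77, SE 0.50), which passed the filter only through day 1 libraries. In the 4 comparisons with a count of 0 at day 1 or in contralateral knees, edgeR's quasi-likelihood test and DESeq2 also called 0 members.

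Between the 2 times after injury, day 7 ACL and day 1 ACL cartilage, miR-669l-5p was called and was higher at day 7. This was 1 of 18 members, beside 15.7% of all miRNAs, and 4 of 18 had an unadjusted p under 0.05, beside 27.6%. In day 1 ACL cartilage miR-669l-5p had 2.09, 6.70 and 1.46 CPM, from 4, 8 and 3 reads. Its second library lay within the day 7 range of 5.65 to 12.4 CPM. The log2 fold change was 1.603 (SE 0.50, 95% interval 0.55 to 2.65), with an adjusted p of 0.0350 in limma-voom. Without day 1 ACL replicate 1, day 1 ACL replicate 3 or day 7 ACL replicate 2 the adjusted p was 0.0744, 0.173 and 0.0839, and without day 1 ACL replicate 2 the log2 fold change was 2.23. The call was also lost with library totals in place of TMM (0.0532), with every miRNA kept (0.114) and with only the groups compared (0.0928). This comparison and the one with naïve cartilage share the day 7 ACL libraries.

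The other 3 with an unadjusted p under 0.05 were also higher at day 7. They were miR-669f-5p (log2 fold change 0.85, SE 0.33, adjusted p 0.0928 in limma-voom), miR-467e-5p (0.96, SE 0.38, adjusted p 0.101) and the measurement of miR-669a-5p and miR-669p-5p (0.60, SE 0.29, adjusted p 0.179). In each the 3 day 7 libraries were above the 3 day 1 libraries, for miR-669f-5p at 11.3 to 17.9 against 5.34 to 10.1 CPM. This also held for miR-669o-5p, whose unadjusted p was not under 0.05. The share of all miRNAs whose libraries separated in this way was not counted. Of the 18 estimates 12 were above 0 and the median was 0.15, beside -0.07 over all miRNAs.

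The difference between the effects at day 7 and at day 1, each against the contralateral knee, was tested in the same model. It was called in 0 of 18 members, beside 6.78% of all miRNAs, and 0 had an unadjusted p under 0.05, beside 16.4%. edgeR's quasi-likelihood test and DESeq2 called 0 members as well. The smallest p was that of miR-467b-5p, with a difference of 1.68 on the log2 scale (SE 0.81, 95% interval -0.01 to 3.37) and an adjusted p of 0.308 in limma-voom. At day 7 it had 2.75, 5.88 and 6.64 CPM in the ACL and 2.75, 4.43 and 4.16 CPM in the contralateral libraries. For miR-669l-5p the difference was 1.24 (SE 0.67), for miR-669a-5p and miR-669p-5p 0.76 (SE 0.39), and for miR-467a-5p 0.01 (SE 0.43). Of the 18 differences 16 were above 0, with a median of 0.28 beside 0.02 over all miRNAs. The effect of injury on members was thus not shown to differ between the times.

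**Figure D5:**
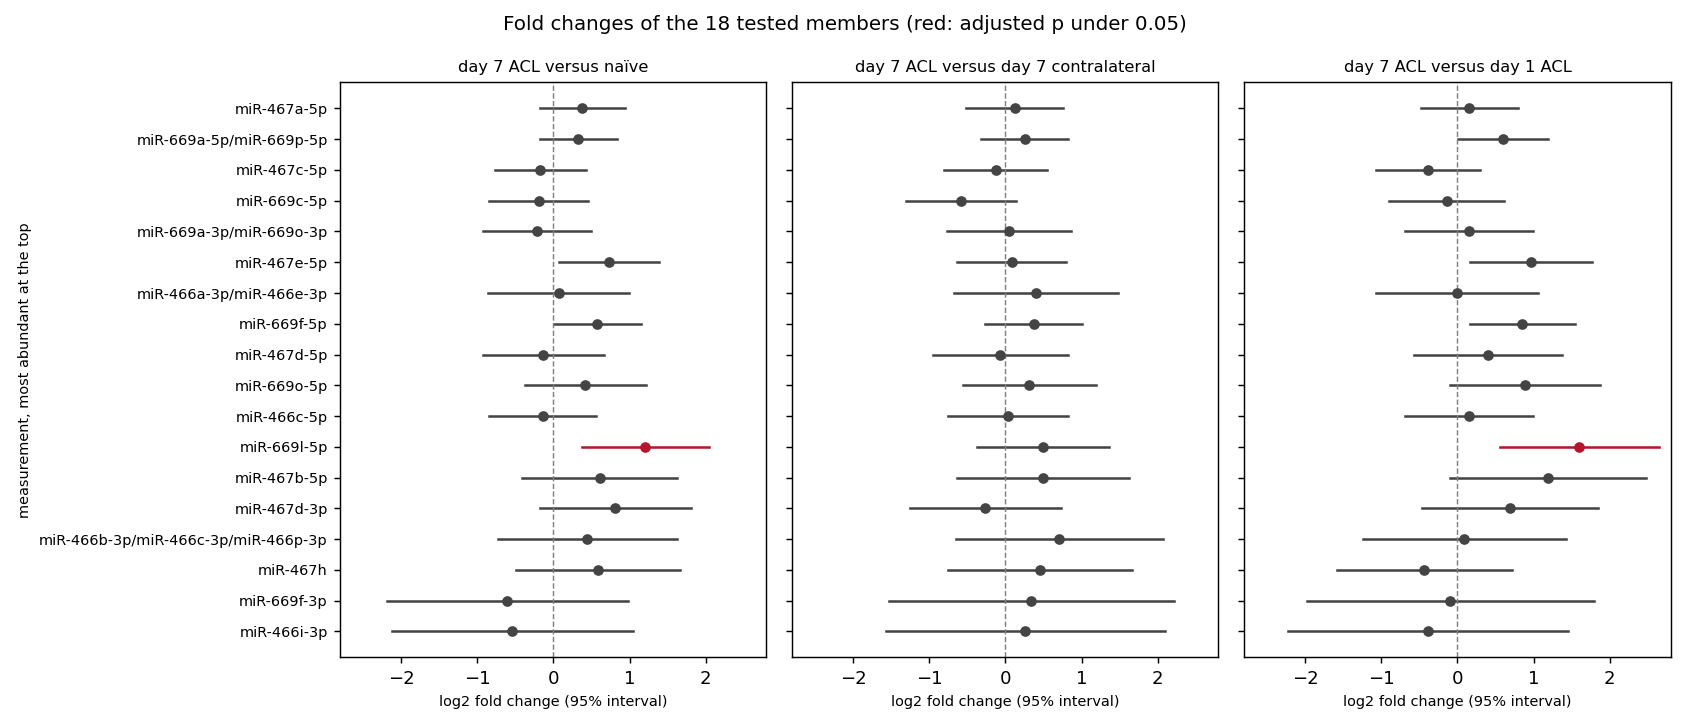
Log2 fold changes (points) with 95% intervals (lines) of the 18 tested members in 3 comparisons of day 7 ACL cartilage, with the most abundant member at the top; red marks an adjusted p under 0.05. Red appears for miR-669l-5p against naïve (1.21) and against day 1 ACL cartilage (1.603), and in no member against the contralateral knee.

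The 46 measurements that did not pass the filter held 976 reads, 8.38% of the reads of the families. The highest totals were those of miR-466k (102 reads), miR-466i-5p (94) and miR-669d-5p (77). In 23 of the 46 all libraries together had under 10 reads, and 5 had a single read. All 4 measurements of the miR-297 family were in this part, with 76 reads in total, and miR-297b-5p had most of them (36). These members were not tested in the main fit. When every miRNA with at least 1 count was kept, all 64 measurements were tested and 0 were called in any comparison. That fit also lost the call of miR-669l-5p (adjusted p 0.148 against naïve and 0.114 against day 1 ACL cartilage in limma-voom). The share of all miRNAs called in it was not counted, so that the 0 does not show that the low members were unchanged.

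For scale, the miRNAs of the imprinted 12qF1 cluster between Meg3 and Mirg, another large miRNA cluster of mouse, were counted in the same fit. Of 48 tested, 36 were higher in day 7 ACL than in naïve cartilage, with a median log2 fold change of 1.69, and 37 were higher than in the contralateral knee (1.95). The corresponding numbers in the Sfmbt2 families were 1 and 0 of 18, with medians of 0.35 and 0.26. The 12qF1 list was chosen with earlier results of these data known, and the difference between the lists was not tested.

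The cartilage miRNAs miR-140 and miR-455 (both arms, 4 of 4) were detected in every library, with a summed level of 6172 to 10500 CPM in naïve and 6756 to 9983 CPM in day 7 ACL cartilage. The erythroid list (4 of 4 detected in every library) was at 5986 to 7928 CPM in naïve and 3081 to 4150 CPM in day 7 ACL cartilage, and 1 of its 4 miRNAs was called lower. The skeletal muscle list (4 of 4) was at 67480 to 198900 and 69610 to 133900 CPM, the leukocyte list (6 of 6) at 6447 to 10850 and 8002 to 9478 CPM with 1 of its 6 miRNAs called lower, and the endothelial and smooth muscle list (4 of 4) at 48220 to 83020 and 74000 to 80720 CPM. The part of these miRNAs, or of the cells they mark, in the level of miR-669l-5p was not tested.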

How the data were processed

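The authors removed adapters, aligned the reads against mature miRNAs with Bowtie 1.3.0 and counted alignments with SAMtools 1.12, in a pipeline set to GRCm38. The values deposited by the authors are raw counts per mature miRNA and library. Rows were matched to libraries by the library number, whose prefix differs between table and labels. Replicate numbers given here are the order of the libraries within a group, so that equal numbers do not mark the same mice. ACL and contralateral libraries can come from the same pools of mice. The study used 6 naïve mice in all and pooled their left and right knees separately. The 6 naïve libraries therefore stand for fewer than 6 independent pools. The study fitted a term for the pool. The labels name no pools, so this term was left out and the libraries were treated as independent, and p-values measure the spread between these libraries. No 2 libraries of a group agreed within sampling noise.

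In R 4.3.3, filterByExpr (edgeR 4.0.16, minimum count 10, minimum total 15) kept 428 miRNAs. A limma-voom model (limma 3.58.1) with TMM scaling and a mean for each group used all 18 libraries, and the 8 contrasts were each adjusted by the Benjamini-Hochberg method (two-sided, threshold 0.05). Alternatives were other scalings and filters, edgeR's quasi-likelihood test, DESeq2 1.42.0, quality weights, smaller fits and leaving out each library. Hairpin positions came from GENCODE and mature sequences from RefSeq.

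Every member past the filter was named, and libraries were listed for the 6 most abundant members, for called members and for the smallest p in each day 7 ACL contrast. Libraries of miR-669f-5p, miR-467d-3p and miR-467h were listed after their values had been seen. The members and the lists were chosen with earlier results of these data known.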

Additional observations from a re-analysis of the deposited data

Results flagged for a closer look

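Among 28 sets of 6 naïve values (the 18 tested members and 10 sums and shares over members), 2 held a library whose gap to the others was above Dixon's 95% critical value for 6 values, and chance gives about 1 in 20. Both were naïve replicate 6. It had 123.5 CPM of miR-467a-5p, where the other 5 naïve libraries had 67.97 to 86.6 CPM, and 31.56 CPM of miR-669c-5p, where the others had 19.1 to 23.6 CPM. This library also had the highest sum over the 4 families (372 CPM, beside 273 to 311 CPM in the others). Groups of 3 libraries were not examined in this way.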

How the results depend on the processing

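The count of called members changed in 2 of the 8 comparisons. It was 0 in the other 6 under every alternative run. Against naïve cartilage the count of 1 became 0 with library totals only (smallest adjusted p 0.134), with every miRNA that had at least 1 count (0.148) and with at least 10 counts in every library, where 5 members were tested without miR-669l-5p. Against day 1 ACL cartilage it became 0 with library totals only (adjusted p 0.0532), with every miRNA kept (0.114) and with only the groups compared (0.0928), and 2 with quality weights, which added miR-669f-5p. With at least 10 counts in every library it stayed at 1, but that member was miR-669f-5p (adjusted p 0.0470), and miR-669l-5p was not tested. With a library left out it ranged from 0 to 1 against naïve and from 0 to 3 against day 1 ACL cartilage. There it was 2 without day 1 ACL replicate 2 or day 1 contralateral replicate 2 and 3 without day 7 contralateral replicate 1. The call of miR-669l-5p against naïve cartilage held with DESeq2 size factors, edgeR's quasi-likelihood test, DESeq2, quality weights, only the groups compared and collapsed columns, and its log2 fold change was above 0 under every setting that tested it and at most 1.41 with all libraries.

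Of 30 fold changes followed, 245 repeats with other settings gave 4 reversals, all of small values against the day 7 contralateral knee. The value of miR-669a-3p and miR-669o-3p was -0.053 with edgeR's quasi-likelihood test, -0.04 with DESeq2 and -0.28 with quality weights, and that of miR-467e-5p was -0.05 with quality weights. Leaving out a library gave 7 reversals in 540 repeats. Against the day 7 contralateral knee the ranges were -0.127 to 0.300 for miR-467a-5p, -0.284 to 0.192 for miR-467c-5p, -0.253 to 0.259 for miR-669a-3p and miR-669o-3p and -0.081 to 0.418 for miR-467e-5p. Against naïve cartilage miR-467c-5p ranged from -0.342 to 0.028. The cause of these shifts was not tested.

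The ratio of summed abundance between day 7 ACL and naïve cartilage was 1.04 to 1.14 with other scalings or all columns summed. That to the contralateral knee was 0.979 to 1.135 with a library left out. Library totals alone moved the median log2 fold change over all miRNAs by over 0.1 in 5 of 8 comparisons (to -0.125 in day 7 ACL against naïve cartilage). The median of the members moved from 0.35 to 0.22 there, from -0.25 to -0.47 in day 1 ACL against naïve cartilage and from 0.09 to -0.02 in day 7 contralateral against naïve cartilage. No paired analysis was possible because the labels give no replicate or pool numbers. Depth limits the members below about 4.12 CPM, the level of 3 reads in the shallowest library.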
